A study of Mus musculus with 16 samples.

Results

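Common lymphoid progenitors (CLP) of mouse bone marrow were compared with hematopoietic stem cells (HSC) of 32-week wild-type mice. The comparison takes 7 of the 16 expression arrays of the series, chosen by their titles: 2 arrays of Ly6D+ CLP, 2 of Ly6D- CLP and 3 of 32-week wild-type HSC. A second comparison of the same 4 CLP arrays with 3 arrays of young HSC was used to tell which differences between CLP and HSC were found against both stem cell groups. All mice are labelled female, C57Bl6 and wild type; for the 32-week mice the genotype is given as Polgtm1Lrsn+/+, the wild-type allele at the locus that is mutated in the study's mutator mice. The CLP came from mice of 8 to 12 weeks, the young HSC from mice of 9 to 12 weeks and the other HSC from mice of 32 weeks, so age and cell type cannot be told apart against the 32-week group. Each sample was 4000 to 7000 cells sorted straight into RNA extraction. The labels give neither the antibodies of the HSC and CLP sorts, apart from Ly6D, nor the number of mice behind a sample. The p-values therefore measure the spread between samples labelled biological replicates. The remaining 6 arrays, 3 of HSC from mice of 24 months and 3 of 32-week mutator HSC, entered the fit for its estimate of the spread and are otherwise not described.

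HSC are the self-renewing cells at the origin of all blood lineages, and a network of transcription factors that includes Gata2, Mecom, Hlf, Meis1 and Tal1 is known to maintain them. CLP are progenitors in the marrow that have lost most myeloid and erythroid potential and give rise to B cells, T cells, natural killer cells and some dendritic cells. They carry the receptors for interleukin 7 and Flt3 ligand, and begin to express the enzymes that rearrange antigen receptor genes. Ly6D divides them: Ly6D- CLP keep several lymphoid fates open, while Ly6D+ CLP are biased to the B lineage through Ebf1 and its targets.

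The arrays of the 2 cell types differed in technical controls as well. The poly-A control transcript LysX, added to the RNA before labelling, read 5682 to 8255 on the CLP arrays, 6099 to 12726 on the 32-week arrays and 468 to 889 on the young arrays. DapX followed the same order, with 16592 to 21062, 15358 to 24556 and 3286 to 3802. Young HSC were thus set apart from CLP in these controls and 32-week HSC were not. The actin probe sets at the 3 prime and 5 prime ends, whose ratio grows as the RNA or its amplified copy gets shorter, went the other way: the log2 of this actin ratio was 2.11 to 3.85 in CLP, 2.39 to 2.61 in young HSC and 4.24 to 5.26 in 32-week HSC. The hybridisation control BioB was 2434 to 3364 in CLP, 263 to 511 in young HSC, 1810 in 32-week replicate 1 and 267 and 472 in the other two. In 32-week replicate 3 and in all 4 CLP arrays, Xist was at most 16.8 and the Y-linked Eif2s3y at least 423, against the female label. In every other HSC array of the series, Xist was at least 3507 and Eif2s3y at most 12.7. This pattern cannot be told apart from cell type against young HSC. Against 32-week HSC, only replicate 3 separates the pattern from cell type. Genes on X and Y were left out of every count and description that follows. Effects of sex on autosomal genes were not tested. A gene's replicates varied most in 32-week HSC, with a median SD of 0.34 on the log2 scale, against 0.13 in young HSC and 0.21 in each CLP group.

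Intensities are on the authors' linear scale, tests were run with limma on log2(intensity + 16), and a gene is called higher or lower where its Benjamini-Hochberg adjusted p was under 0.05. Log2 changes are CLP minus HSC, with CLP as the mean of the Ly6D+ and Ly6D- group means, and errors are standard errors (SE). Of 13853 autosomal genes tested, 3899 (28.1%) were called between CLP and 32-week HSC, 2222 (16%) higher and 1677 (12.1%) lower in CLP. Against young HSC, 4227 (30.5%) were called, 1760 (12.7%) higher and 2467 (17.8%) lower. These splits moved with the covariates: 325 were higher and 508 lower than in 32-week HSC with the actin ratio of each array as a covariate, and 1614 higher and 1013 lower than in young HSC with BioB as a covariate. The same direction was called against both for 2151 genes (15.5%), of which 1058 (7.64%) were higher and 1093 (7.89%) lower in CLP. These are 55.2% of the calls against 32-week HSC and 50.9% of those against young HSC. Of the genes called against 32-week HSC, 47.6% of the higher and 65.2% of the lower ones were called the same way against young HSC. Of those called against young HSC, 60.1% of the higher and 44.3% of the lower ones were called the same way against 32-week HSC, so the order of the 2 directions turned with the list it was counted from. It turned as well with the actin covariate, to 82.8% and 77.4% of the 32-week calls. The CLP arrays are shared by both comparisons, so the count of shared calls is not a replication. In 1227 of the shared calls the change was at least 2-fold against each group, 552 higher and 675 lower. For 1480 of the shared calls (10.7% of genes tested) the 4 CLP arrays lay outside the range of all 12 HSC arrays of the series, old and mutator HSC included; 756 (5.46%) were higher and 724 (5.23%) lower. Over all genes tested, called or not, the CLP arrays did not overlap the 32-week arrays in 25.0% and the young arrays in 39.9%. The count of shared calls fell to 662 with the actin covariate, 596 of them among the 2151. It was 1512 with the spread set per group, with 1440 of the 2151 among them. A gene stands for its brightest probe set. With the mean over its probe sets, the change against 32-week HSC was smaller by over 1.5-fold for 65 of 159 genes named in the text or by its rule and called there, larger by as much for 2, and not called for 6.

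**Figure D1:**
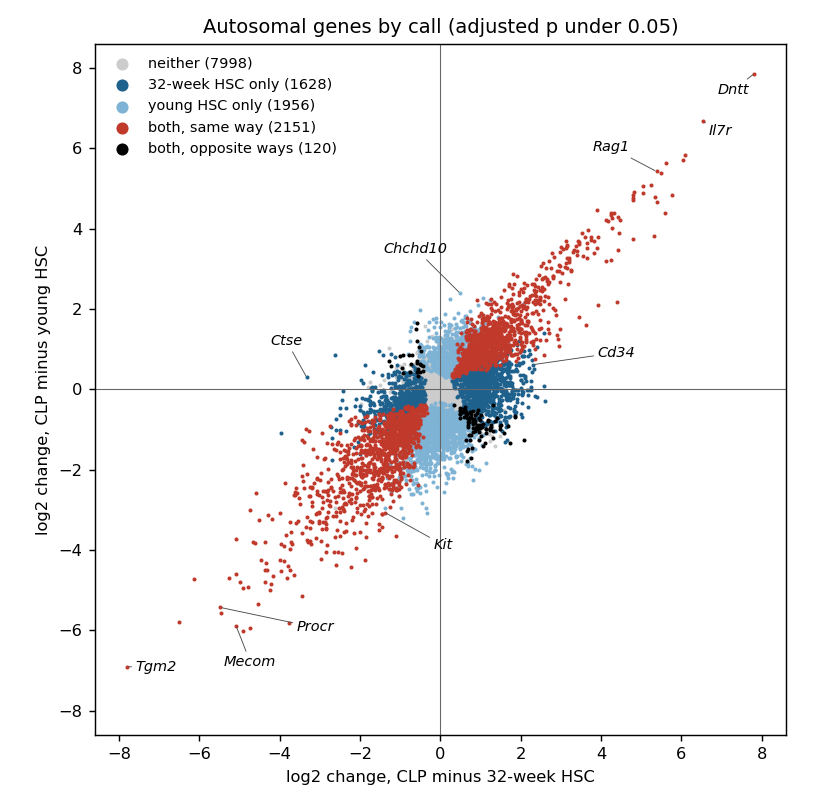
Each point is 1 of 13853 autosomal genes; the x axis is the log2 change of CLP against 32-week HSC and the y axis the log2 change against young HSC, coloured by which comparisons called the gene (adjusted p under 0.05). The 2151 genes called the same way in both run from Tgm2 at the lower left to Dntt at the upper right, and the 120 black points are called in opposite directions; both axes share the CLP arrays.

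The 4 CLP arrays are 2 populations, and a call on their mean can rest on 1 of them. Tested apart, 1069 genes (7.72% of those tested, 49.7% of the 2151) were called the same way in each CLP group against each HSC group, 515 higher and 554 lower. Ly6D+ and Ly6D- CLP themselves were called different for 376 autosomal genes (2.71%), 189 of them among the 2151. Of the 1058 genes higher against both HSC groups, 169 were not called in Ly6D- CLP against either group, and the Ly6D groups were called different for 49 of these. Another 118 were not called in Ly6D+ CLP against either, with a called difference for 11. These tests per CLP group were added after the values of the B-lineage genes had been seen.

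Of 24 stem cell transcription factors tested, 14 were lower and 1 was higher in CLP against both HSC groups; the median change over the list was -1.56 against 32-week HSC and -1.12 against young HSC, where all autosomal genes had medians of 0.04 and 0.02. Mecom, a zinc finger factor needed for HSC self-renewal, read 9.97 and 9.45 in Ly6D+ CLP, 14.3 and 144 in Ly6D- CLP, 1325, 1937 and 1123 in 32-week HSC and 2035, 2734 and 2760 in young HSC. Every CLP array lay below every HSC array, and Ly6D- replicate 2 stood above the other CLP arrays. Its log2 change was -5.09 ± 0.41 against 32-week HSC (adjusted p = 1.1e-06) and -5.88 ± 0.41 against young HSC (adjusted p = 2.3e-07). Its 3 probe sets ran from -5.09 to -0.19 against 32-week HSC, and their mean gave -1.75 (adjusted p = 3.5e-06). Hlf, a bZIP factor of primitive HSC, was 18.6 and 84.5 in Ly6D+ CLP, 29.0 and 114 in Ly6D- CLP, 1537 to 2501 in 32-week HSC and 1905 to 2181 in young HSC. The changes were -4.79 and -4.92. Gata2, which drives early blood development and the survival of HSC, was between 30.3 and 92.0 in CLP, 1017 to 1806 in 32-week and 1836 to 1966 in young HSC, with changes of -4.35 ± 0.17 and -4.79 ± 0.17. Prdm16, a regulator of HSC maintenance, changed by -3.74 and -4.51, Pbx3, a cofactor of Hox proteins, by -4.60 and -3.82, and Tal1, the bHLH factor of early hematopoiesis, by -2.43 and -2.99. A probe set of Prdm16 read 0.39 against 32-week HSC, and the mean of its probe sets gave -1.33.

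Other factors of that list changed by less. Meis1, the Hox cofactor, still read 623 to 1429 in CLP, against 1455 to 3060 in 32-week and 4132 to 4868 in young HSC. Its change was -1.31 against the former and -2.32 against the latter, and the HSC groups themselves were called different (adjusted p = 0.011). Lmo2, the bridging protein of the Tal1 and Gata complex, read 1065 and 1335 in Ly6D+ CLP and 3342 and 2865 in Ly6D- CLP, and changed by -1.11 and -1.18. Lyl1, a bHLH factor related to Tal1 that also acts in lymphoid progenitors, was the 1 member called higher: it read 2061 to 2825 in CLP, 1012 to 1264 in 32-week HSC and 586 to 870 in young HSC, changes of 1.07 and 1.74. Hoxa9 was lower than in young HSC (-1.06, adjusted p = 0.0019), with a change of -0.36 (adjusted p = 0.23) against 32-week HSC.

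Of 23 genes of the stem cell surface and its signalling, 18 were lower and 0 higher against both groups, with medians of -2.50 and -3.24. With the actin ratio as a covariate 12 of the 18 kept both calls, as did 11 of the 15 called members of the factor list. Procr, the endothelial protein C receptor and a marker of the most primitive HSC, read 43.7 and 18.4 in Ly6D+ CLP, 11.3 and 9.76 in Ly6D- CLP, 1355 to 1738 in 32-week and 1401 to 1554 in young HSC. The groups did not overlap, and the change was -5.49 ± 0.17 and -5.43 ± 0.17 (adjusted p = 1.2e-10 and 1.3e-10). Slamf1, which encodes the HSC marker CD150, was 21.9 to 37.2 in CLP, 359 to 478 in 32-week and 298 to 315 in young HSC. Fgd5, an exchange factor used as an HSC reporter gene, changed by -4.47 and -4.24, and Mllt3, a chromatin reader of HSC, by -3.78 and -4.39. Kit, the stem cell factor receptor, was lower against both but by unequal amounts: it read 251 to 588 in CLP, 720 to 1565 in 32-week HSC and 2391 to 3603 in young HSC. The change was -1.38 ± 0.30 against 32-week HSC and -3.07 ± 0.30 against young HSC, and the difference between the HSC groups was called (adjusted p = 0.0031). A second probe set of Kit read 0.20 against 32-week HSC, and the mean of its probe sets was not called there (-0.59, adjusted p = 0.076). Cd34, a sialomucin that marks multipotent progenitors more than dormant HSC, was higher than in 32-week HSC by 2.31 ± 0.27 (adjusted p = 3.8e-05); its change against young HSC was 0.62 (adjusted p = 0.11). It read 1037 and 1826 in Ly6D+ CLP, 3818 and 3207 in Ly6D- CLP, 347 to 482 in 32-week and 1223 to 1917 in young HSC, so that CLP overlapped the young arrays and lay above the 32-week ones.

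**Figure D2:**
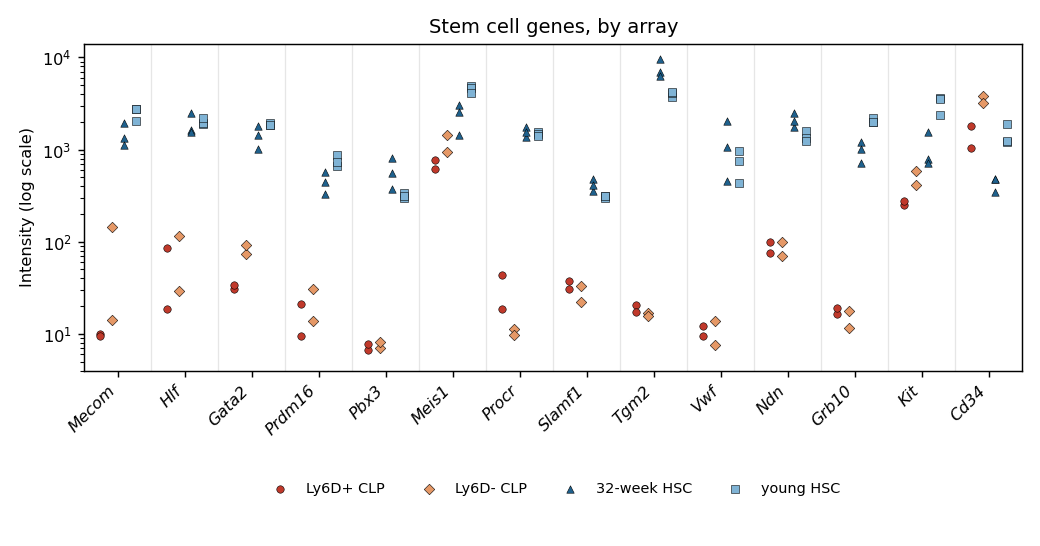
Intensity (log scale) of 14 stem cell genes on each array, with circles for Ly6D+ CLP, diamonds for Ly6D- CLP, triangles for 32-week HSC and squares for young HSC. The CLP arrays lie below every HSC array of both groups for the first 13 genes, by the widest gap for Tgm2, while Cd34 lies above the 32-week arrays and overlaps the young ones.

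The largest fall by the brightest probe set was that of Tgm2, transglutaminase 2, a protein crosslinking enzyme. It read 15.6 to 20.6 in CLP, close to the array background, against 6963, 6290 and 9527 in 32-week HSC and 3698 to 4231 in young HSC. The change was -7.80 ± 0.16 and -6.91 ± 0.16; of its 6 probe sets, 1 showed no fall, at 0.05. With the mean of probe sets its change was -4.62, behind Aldh1a1 and Procr at -6.51 and -5.49. Aldh1a1, a retinaldehyde dehydrogenase, followed with 10.4 to 31.8 in CLP against 2085 to 3318 and 1521 to 1859, a change of -6.51 and -5.79. Klf9, a Krüppel-like factor, fell by 6.14 and 4.71, and varied within CLP from 9.97 to 129; the mean of its probe sets gave -2.15 against 32-week HSC. Fkbp9, a prolyl isomerase of the endoplasmic reticulum, read 83.7 to 90.6 in Ly6D+ CLP and down to 6.52 in Ly6D- CLP, below 1827 to 2720 and 2354 to 2536; the Ly6D groups were called different (1.94, Ly6D+ minus Ly6D-, adjusted p = 0.00017). Rab38, a small GTPase of organelle transport, was lower in Ly6D+ than in Ly6D- CLP (-2.79, adjusted p = 0.00026), with 35.5 and 42.8 in Ly6D+ and 224 and 590 in Ly6D- arrays, against 4196 to 4861 in 32-week and 3680 to 4624 in young HSC. Hacd4, a fatty acid elongation enzyme, Pdzk1ip1 and Myct1 were also among the 14 largest falls, with changes of -5.10, -5.09 and -4.74 against 32-week HSC and -4.59, -3.73 and -5.94 against young HSC.

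Of 19 megakaryocyte and platelet genes tested, 7 were lower and 0 higher against both groups, with medians of -0.56 and -1.29. Vwf, the platelet adhesion protein that also marks platelet-biased HSC, read 7.59 to 13.8 in CLP, 456 to 2050 in 32-week and 434 to 954 in young HSC. Selp changed by -3.87 and -2.34, Itgb3 by -3.31 and -3.75, the chemokine Pf4 by -3.10 and -3.71 and the thrombin receptor F2r by -2.98 and -3.77. A second probe set of Itgb3 showed no fall against 32-week HSC, at 0.04. F2r read 529 and 810 in Ly6D- CLP and 79.9 and 359 in Ly6D+ CLP (adjusted p = 0.064 between them). Of 17 genes of the erythroid, heme and iron list, 3 were lower and 1 higher against both. Tfr2, an iron sensor, fell by 4.90 and 4.93 and the carbonic anhydrase Car2 by 2.50 and 3.06. The transferrin receptor Tfrc, which imports iron into growing cells, rose: it was 1012 to 1798 in CLP, 180 to 336 in 32-week and 390 to 552 in young HSC, changes of 2.27 and 1.51.

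Among 17 imprinted genes, which are expressed from 1 parental allele and several of which restrain growth, 5 were lower and 0 higher against both. Grb10, an adaptor that dampens insulin and IGF signalling, read 11.7 to 18.9 in CLP, 719 to 1207 in 32-week and 1980 to 2214 in young HSC, changes of -4.92 and -6.02; the mean of its probe sets gave -1.75 against 32-week HSC. Ndn, a growth suppressor, read 70.9 to 98.5 in CLP against 1752 to 2517 and 1238 to 1596, and Cdkn1c, the CDK inhibitor p57, changed by -3.20 and -2.91. Meg3, a long noncoding RNA of the Dlk1 locus, was lower only against 32-week HSC (-3.97, adjusted p = 0.00033). In 32-week HSC Meg3 read 554, 433 and 3057, with replicate 3 far above the others, and 64.1 to 146 in young HSC.

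Il7r and Flt3 were higher on all 4 CLP arrays than on any array of either HSC group. Il7r, the receptor chain for interleukin 7, read 3417 and 3930 in Ly6D+ CLP and 2162 and 2851 in Ly6D- CLP. It read 11.0 to 28.8 in 32-week HSC and 12.2 to 15.7 in young HSC. The change was 6.54 ± 0.17 (adjusted p = 3.1e-11) and 6.67 ± 0.17 (adjusted p = 2.4e-11). Flt3, the receptor that supports lymphoid-primed progenitors, read 3929 to 5381 in CLP with overlapping Ly6D groups, against 119 to 182 and 150 to 179. Both receptors are commonly used to sort CLP, and the labels do not say whether they were used here. Of 26 cytokine and growth factor receptors tested, 10 were higher and 7 lower against both groups, and 9 of these 17 kept both calls with the actin covariate. Besides these, the higher ones included Gfra1, the coreceptor for GDNF (3.41 and 3.45), Il17ra (2.32 and 1.19) and Il10ra (2.28 and 2.35), which binds interleukin 10. The mean of the probe sets of Il17ra gave 0.50 against young HSC. Il10ra read 292 and 271 in Ly6D+ and 70.5 and 60.9 in Ly6D- CLP, a called difference (adjusted p = 0.0002). The lower ones included Tgfbr3, the TGF-beta coreceptor betaglycan (-3.29 and -3.79), and Igf1r (-1.82 and -2.05).

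Of 10 genes of antigen receptor rearrangement tested, 5 were higher and 0 lower against both, and 4 of the 5 kept both calls with the actin covariate. Dntt, which adds untemplated nucleotides at the joints, showed the largest gain of any gene: it read 8648 and 8783 in Ly6D+ CLP, 8869 and 8652 in Ly6D- CLP, 14.6 to 32.8 in 32-week HSC and 19.9 to 23.1 in young HSC. The Ly6D groups overlapped, and the change was 7.81 ± 0.22 and 7.86 ± 0.22. Rag1, the recombinase subunit that cuts the DNA, was graded instead, by 3.92 from Ly6D+ to Ly6D- CLP (adjusted p = 1.9e-09), with 3982 and 4264 in Ly6D+ CLP, 253 and 263 in Ly6D- CLP and 8.53 to 10.2 across both HSC groups. Its partner Rag2 read 390 and 361 in Ly6D+ CLP and 341 and 137 in Ly6D- CLP, against 20.4 to 35.4 and 17.2 to 24.9. Xrcc6, the Ku70 subunit of end joining, changed by 3.94 against 32-week HSC and 2.11 against young HSC, and the HSC groups were called different (adjusted p = 0.0031). Prkdc, the DNA-dependent protein kinase, changed by 0.88 and 1.02.

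**Figure D3:**
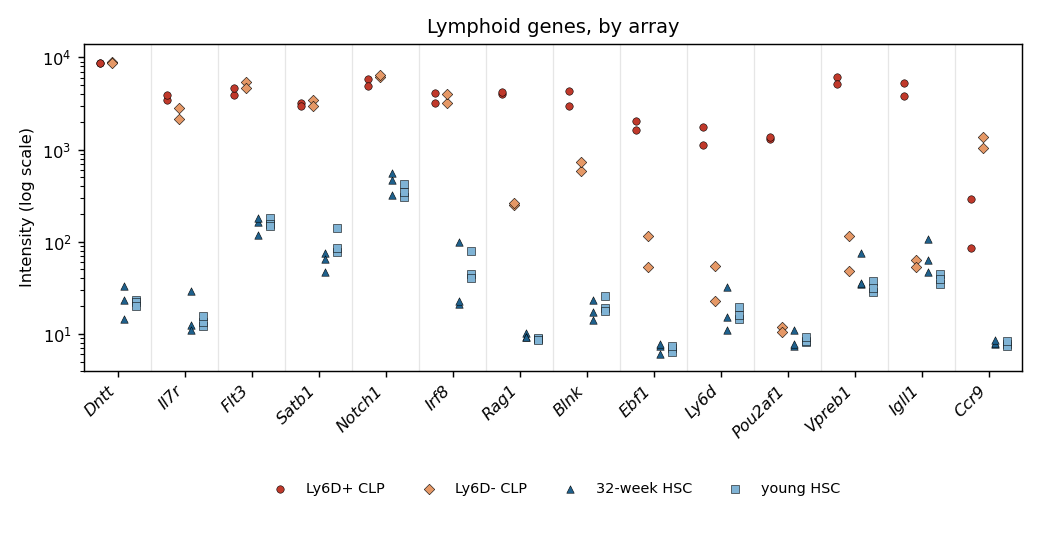
Intensity (log scale) of 14 lymphoid genes on each array, with circles for Ly6D+ CLP, diamonds for Ly6D- CLP, triangles for 32-week HSC and squares for young HSC. Dntt, Il7r, Flt3, Satb1, Notch1 and Irf8 are high on all 4 CLP arrays, Rag1, Blnk and Ebf1 step down from Ly6D+ to Ly6D- CLP, Pou2af1, Vpreb1 and Igll1 are high in Ly6D+ CLP alone, and Ccr9 is higher in Ly6D- CLP.

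Of 29 lymphoid and B-lineage transcription factors tested, 10 were higher and 3 lower in CLP against both groups. With the actin covariate 5 of these 13 kept both calls. Satb1, a chromatin organiser of lymphoid cells, read 2967 to 3415 in CLP, 46.5 to 75.0 in 32-week and 77.6 to 142 in young HSC, changes of 5.35 ± 0.28 and 4.79 ± 0.28. Notch1, the receptor that directs T-lineage choice, read 4951 to 6450 in CLP against 322 to 553 and 303 to 420. Neither was called between the Ly6D groups, with differences of -0.03 ± 0.37 for Satb1 and -0.23 ± 0.27 for Notch1. Ebf1, the pioneer factor of the B lineage, read 1651 and 2051 in Ly6D+ CLP, 115 and 52.6 in Ly6D- CLP and at most 7.86 in either HSC group. Its change was 4.18 ± 0.18 and 4.19 ± 0.18. Against 32-week HSC it was higher in each CLP group alone, by 6.33 in Ly6D+ and 2.03 in Ly6D- CLP, and the Ly6D groups were called different (adjusted p = 4e-07). Pou2af1, a coactivator of immunoglobulin genes, read 1303 and 1363 in Ly6D+ CLP and 11.9 and 10.4 in Ly6D- CLP; the latter overlapped the 7.37 to 11.1 of 32-week HSC. The change of 2.95 for the CLP mean is 5.77 in Ly6D+ CLP and 0.13 (adjusted p = 0.54) in Ly6D- CLP. Ikzf1, the Ikaros factor, was already 738 to 1390 in 32-week and 1369 to 1686 in young HSC, and rose to 3417 to 3944 in CLP. Tcf3, which encodes the E2A proteins, changed by 1.45 and 1.30. Its antagonists Id2 and Id3 changed by 0.99 and 0.82, and by 0.97 and 1.05. The factors lower against both were Ikzf2, the Helios factor (-3.03 and -2.63), Bcl6 (-1.53 and -0.91) and Gata3 (-0.95 and -1.25). Pax5, which seals B-lineage commitment, was 128 and 41.9 in Ly6D+ and 23.5 and 24.0 in Ly6D- CLP, against 18.8 to 35.5 in 32-week HSC (adjusted p = 0.087) and 17.8 to 19.7 in young HSC (adjusted p = 0.024).

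The pre-B receptor and B-cell signalling list had the highest share of members higher against both groups, 12 of 17 tested with 0 lower, and medians of 1.42 and 1.09. Of the 12, 6 were called in each CLP group alone, and 6 kept both calls with the actin covariate. Blnk, the adaptor that links the B-cell receptor to its kinases, read 4283 and 2940 in Ly6D+ CLP, 579 and 725 in Ly6D- CLP and 14.2 to 25.6 over both HSC groups. Its change was 5.49 ± 0.18 and 5.39 ± 0.18. Vpreb1 and Igll1, the surrogate light chain of the pre-B receptor, were high in Ly6D+ CLP alone. Vpreb1 read 6086 and 5117 there, 48.6 and 117 in Ly6D- CLP and 34.9 to 76.4 in 32-week HSC. Igll1 read 5222 and 3841 there, 63.9 and 53.8 in Ly6D- CLP and 46.9 to 107 in 32-week HSC. In Ly6D- CLP alone, their changes against 32-week HSC were 0.57 (adjusted p = 0.28) and -0.18 (adjusted p = 0.68). Cd79a, a signalling chain of the B-cell receptor, was 173 and 60.9 in Ly6D+ CLP and 17.1 and 16.9 in Ly6D- CLP, where 32-week HSC had 10.8 to 17.9. Its partner Cd79b was higher in all 4 arrays, with 1020 and 887 in Ly6D+ and 258 and 330 in Ly6D- CLP against 102 to 132 and 78.1 to 92.9. The kinase Blk changed by 2.54 and 2.44, the scaffold Bank1 by 2.14 and 1.42 and the kinase Syk by 1.64 and 0.99. Ly6d itself, which the sort used, read 1758 and 1126 in Ly6D+ CLP and 54.7 and 23.0 in Ly6D- CLP, against 10.9 to 32.3 in 32-week HSC.

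The 250 bases before the start sites of these genes were searched for an Ebf1 site (TCCC and GGGA with any 2 bases between them, a palindrome) and a GATA site (GATAAG, on both strands), since Ebf1 rose and Gata2 fell in CLP. Windows were at hand for 10 of the 12 B-cell genes higher against both (12 windows) and 24 of the 32 stem cell genes lower against both (29 windows), from RefSeq on GRCm38.p6. The Ebf1 letters stand in 0 of the 12 B-cell windows, 1 of the 29 stem cell windows and 0.79% of all 31396 autosomal windows of that length. The GATA letters stand in 2 of the 12, 2 of the 29 and 6.54% of all. A match describes the letters only. The following windows, 5′ to 3′ on the gene's strand with the match in capitals, are those of the B-cell gene with the largest gain that holds a match, Blnk (chr19:40994222-40994471, minus strand, a GATA site read on the other strand), and of 2 stem cell factors, Gfi1b (chr2:28621983-28622232, minus strand, a GATA site) and Mecom (chr3:30013205-30013454, minus strand, an Ebf1 site).
Blnk: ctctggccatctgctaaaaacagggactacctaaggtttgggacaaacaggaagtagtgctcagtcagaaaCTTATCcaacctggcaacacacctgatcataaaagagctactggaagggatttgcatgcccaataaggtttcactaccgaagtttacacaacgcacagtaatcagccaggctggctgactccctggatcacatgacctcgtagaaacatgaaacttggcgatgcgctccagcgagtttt
Gfi1b: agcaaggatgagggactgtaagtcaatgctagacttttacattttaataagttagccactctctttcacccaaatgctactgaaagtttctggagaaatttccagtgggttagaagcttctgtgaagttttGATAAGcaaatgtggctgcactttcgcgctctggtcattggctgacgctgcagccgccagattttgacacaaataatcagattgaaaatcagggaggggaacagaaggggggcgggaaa
Mecom: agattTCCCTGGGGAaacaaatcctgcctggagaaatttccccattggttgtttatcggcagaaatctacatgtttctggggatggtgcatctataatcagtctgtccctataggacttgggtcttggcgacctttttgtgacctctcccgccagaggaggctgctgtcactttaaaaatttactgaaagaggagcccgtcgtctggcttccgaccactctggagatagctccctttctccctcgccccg
The matches end 174, 114 and 236 bases before the start sites of Blnk, Gfi1b and Mecom. Gfi1b, a transcriptional repressor that acts within the erythroid and megakaryocyte lineages and also restrains HSC cycling, read 51.9 to 112 in CLP, 188 to 398 in 32-week and 319 to 420 in young HSC.

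Of 16 Notch, T-lineage and thymus homing genes, 5 were higher and 1 lower against both groups. Ccr9, a chemokine receptor of thymus-seeding progenitors, was higher in Ly6D- CLP, at 1051 and 1366, than in Ly6D+ CLP, at 86.2 and 290 (-2.78, adjusted p = 0.00047), and read 7.34 to 8.62 over both HSC groups. Selplg, the P-selectin ligand, changed by 1.76 and 1.53, Cd27 by 1.47 and 1.46 and the chemokine receptor Ccr7 by 1.45 and 1.49. Ccr7 was higher in Ly6D+ CLP, at 121 and 139, than in Ly6D- CLP, at 32.1 and 27.8 (1.67, adjusted p = 3.7e-05). Of 19 trafficking and adhesion receptors, 5 were higher and 3 lower against both. Itgal, the LFA-1 integrin chain of leukocytes, read 827 to 1268 in CLP against 18.4 to 41.0 and 42.7 to 55.9. The junction protein Esam and the laminin receptor Itga6, both found on HSC, changed by -2.87 and -3.29, and by -2.85 and -3.46. Among 8 Gimap GTPases of lymphocyte survival, Gimap7 was higher (3.21 and 3.27) and Gimap5 lower (-0.98 and -1.10) against both, and 5 others were called against 32-week HSC alone.

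Several genes of myeloid and dendritic cells were higher as well. Of 18 myeloid progenitor genes, 9 were higher and 1 lower against both, with 5 of these 10 calls kept under the actin covariate. Irf8, a factor of monocyte, dendritic and B-cell development, read 3197 to 4155 in CLP, 21.3 to 100.4 in 32-week and 40.2 to 79.4 in young HSC, changes of 6.04 ± 0.37 and 5.72 ± 0.37. Mpo, the granule enzyme of myeloid progenitors, read 1660 and 2152 in Ly6D+ CLP, 4402 and 3335 in Ly6D- CLP, 49.8, 66.2 and 529 in 32-week HSC and 216 to 319 in young HSC. Its Ly6D groups were not called different (-1.01, adjusted p = 0.82). Ly86, which pairs with a Toll-like receptor relative on B cells and macrophages, changed by 4.32 and 4.38, and the repressor Gfi1 by 2.86 and 1.98. Prtn3, another granule protease, went the other way: it read 29.7 and 35.7 in Ly6D+ CLP, 303 and 292 in Ly6D- CLP, 863 to 2927 in 32-week and 1063 to 1397 in young HSC. Elane, neutrophil elastase, was 29.0 to 37.6 in CLP and 29.0 to 37.7 over both HSC groups.

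Of 9 dendritic cell markers tested, 4 were higher and 0 lower against both: Irf8, Flt3, Ccr9 and Cox6a2. Irf8, Flt3 and Ccr9 stand in other lists as well. The summed level of all 10 matched dendritic markers was 9200 to 12206 in CLP, 1077 to 1248 in 32-week and 1215 to 1359 in young HSC. Irf8 and Flt3, already described as higher in CLP, make up most of the CLP sum, so it is not a separate measure of dendritic cells. Siglech, a defining marker of plasmacytoid dendritic cells, was 26.4 to 52.2 in CLP against 17.1 to 22.9 and 22.2 to 29.9. The part of dendritic cells in these gains was not tested. In bulk samples, more cells of a type and more RNA per cell cannot be told apart.

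Other leading gains fell outside the lists. Cnn3, an actin-binding calponin, read 2764 to 3857 in CLP against 16.2 to 70.7 in 32-week and 88.7 to 106 in young HSC. Atp8b4, a phospholipid flippase, read 2054 to 2583 against 23.0 to 46.2 and 28.5 to 34.5, and Mpeg1, a pore-forming protein of phagocytes, 2382 to 3997 against 39.8 to 62.5 and 86.9 to 201. Cd48, the SLAM family receptor that is absent from the most primitive HSC, read 860 and 746 in Ly6D+ and 1741 and 1275 in Ly6D- CLP, against 8.80 to 11.5 and 21.6 to 33.0. The tetraspanin Cd53 changed by 5.33 and 3.82, the prostaglandin E2 receptor Ptger2 by 5.24 and 5.09, Bex6 by 5.05 and 4.89 and Cmah, which makes N-glycolylneuraminic acid, by 5.05 and 5.07. Bex6 was not called with the actin covariate (2.87, adjusted p = 0.16).

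**Figure D4:**
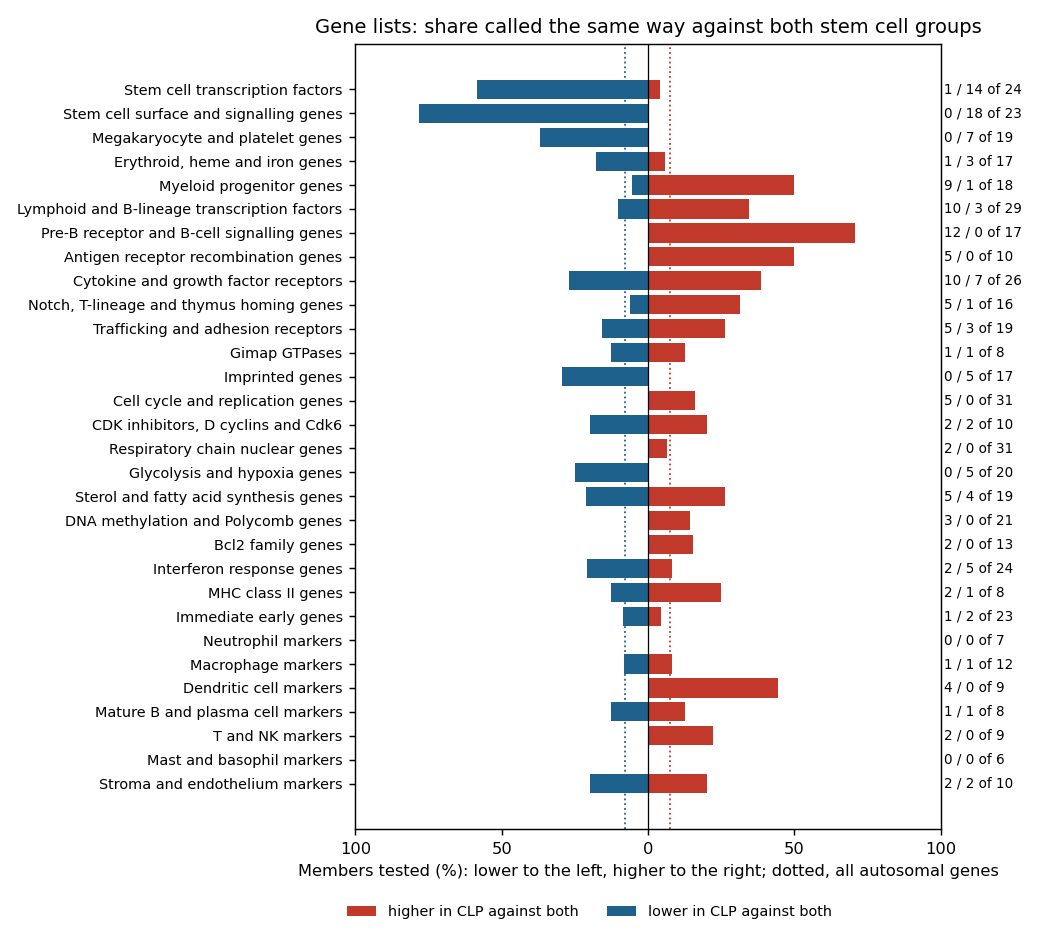
For each of 30 gene lists, the share of tested members called higher (right, red) or lower (left, blue) in CLP against both HSC groups, with the counts at the right as higher / lower of tested. The dotted lines mark the shares over all autosomal genes, 7.64% and 7.89%; the stem cell lists reach farthest left and the pre-B list farthest right.

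Cell division genes were called more often against 32-week than against young HSC. Of 31 cell cycle and replication genes, 22 were higher and 0 lower in CLP against 32-week HSC, while 5 were higher and 1 lower against young HSC. Over all autosomal genes tested, 16% were higher and 12.1% lower against 32-week HSC, and 12.7% higher and 17.8% lower against young HSC. The share of the list called higher against young HSC was near that of all genes. The 5 called higher against both were Gins2 (1.30 and 0.97), Aurka (1.17 and 0.81), Birc5 (0.99 and 0.90), Foxm1 (0.74 and 0.97) and Mcm6 (0.69 and 0.74). Birc5 lost its call in 4 of the 10 fits that left out 1 array. With the actin covariate 0 of these 5 kept both calls. Pcna, the replication clamp, read 3265 to 4606 in CLP, 389 to 1978 in 32-week and 3968 to 4901 in young HSC. CLP lay with young HSC here and above 32-week HSC, and the HSC groups were called different (adjusted p = 0.0064), as they were for 9 of the 31. Of the 22 higher calls, 1 remained with the actin ratio as a covariate and 7 with the spread set per group. The actin ratio did not overlap between CLP and 32-week HSC, and its part in these calls was not tested further. Among 10 CDK inhibitors, D cyclins and Cdk6, Cdk6, the kinase of the G1 phase, read 5150 to 6810 in CLP against 693 to 1699 and 1022 to 1447. Cdkn1a, the CDK inhibitor p21, was also higher against both (1.72 and 2.63), at 929 and 1074 in Ly6D+ and 136 and 220 in Ly6D- CLP, the latter overlapping the 77.0 to 235 of 32-week HSC. Cdkn1c and Ccnd1 were lower.

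Of 31 nuclear genes of the respiratory chain, 2 were higher and 0 lower against both, Sdhb (1.65 and 1.06) and cytochrome c, Cycs (0.89 and 1.05), although 8 were higher and 3 lower against 32-week HSC. Over all autosomal genes tested, 7.64% were higher and 7.89% lower against both, and 16% higher and 12.1% lower against 32-week HSC. The respiratory calls against both lay below these shares. Of 20 glycolysis and hypoxia genes, 0 were higher and 5 lower against both, among them the hexokinases Hk1 (-1.84 and -2.03) and Hk2 (-1.04 and -1.34) and the hypoxia regulator Cited2 (-1.37 and -1.88). Of 19 sterol and fatty acid synthesis genes, 5 were higher and 4 lower. The fatty acid synthase Fasn read 1236 to 2028 in CLP against 504 to 983 and 355 to 396, while the desaturase Scd1 fell by 2.27 and 1.45. Cholesterol enzymes Fdft1 and Hmgcs1 changed by -1.40 and -0.81, and by -1.29 and -0.93. Each has a probe set with the opposite sign against 32-week HSC. With the mean of probe sets, neither Fdft1 nor Hmgcs1 was called against 32-week HSC (adjusted p = 0.24 and 0.70). Sc5d (-0.49, adjusted p = 0.13) and Elovl6 (0.33, adjusted p = 0.41), called lower and higher by the brightest probe set, were not called there either. With the actin covariate, both calls were kept by 0 of the respiratory, 2 of the glycolysis and 1 of the sterol genes called against both.

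For the lists that follow, the shares over all autosomal genes tested were 7.64% higher and 7.89% lower against both HSC groups. Of 21 DNA methylation and Polycomb genes, 3 were higher against both: Uhrf1, the partner that brings Dnmt1 to replicating DNA (2.09 and 1.08), Cbx2 (1.36 and 1.57) and Dnmt1 itself (0.75 and 1.28). The mean of the probe sets of Uhrf1 gave 0.47 against young HSC. Of 13 Bcl2 family genes, Bmf (1.31 and 1.58) and Bok (0.69 and 0.96) were higher and 0 were lower. Neither kept both calls with the actin covariate or with the spread set per group. Of 24 interferon response genes, 2 were higher and 5 lower; Mx1 changed by 2.40 and 2.17, and the sensor Ifih1 by -1.80 and -2.54. Of 8 MHC class II genes, 2 were higher and 1 lower: H2-Ob, a chain of the B-cell modulator of peptide loading, read 3159 to 4018 in CLP against 180 to 253 and 149 to 381, while H2-Aa, a classical class II chain, changed by -1.88 and -0.68. Of 23 immediate early genes, Myc was higher (1.37 and 1.66) and Klf6 and Ier3 were lower. The higher interferon calls and both directions of the immediate early list lay near or below the shares over all genes. With the actin covariate, both calls were kept by 1 of the DNA methylation and Polycomb genes called against both. They were kept by 2 of the interferon, 1 of the MHC class II and 0 of the immediate early genes so called.

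Markers of other cells that could have entered a sort were called against both HSC groups in 0 of 7 neutrophil and 0 of 6 mast and basophil genes, and in 4 of 10 for stroma and endothelium. Over all autosomal genes tested, 15.5% were called the same way against both. Among the neutrophil markers, S100a8 was 1371 and Ngp 1121 in Ly6D- replicate 2, against at most 75.6 and 45.4 in the other CLP arrays, 164 to 2104 and 119 to 2434 in 32-week HSC. The summed level of the 9 matched neutrophil markers was 187 to 4615 in CLP, 470 to 5965 in 32-week and 1129 to 5550 in young HSC. Without Ly6D- replicate 2, 2038 genes were called the same way against both HSC groups. Of 12 macrophage markers, Csf1r was higher (2.13 and 1.21) and Lyz2 lower (-1.35 and -0.95) against both, and the sum was 693 to 1237, 1184 to 1591 and 1210 to 1781. Of 8 mature B and plasma cell markers, Sdc1 was higher and Xbp1 lower, and the B-cell surface gene Ms4a1 read 10.7 to 21.0 in CLP. Of 9 T and NK markers, Nkg7 and Cd5 were higher and 0 were lower, with Cd3e at 54.2 to 77.1 in CLP and 48.6 to 102 in 32-week HSC. The mast cell protease gene Cpa3 read 12.1 to 41.7 in CLP against 42.2 to 53.9 in 32-week HSC. Of 10 stroma and endothelium markers, Pdgfrb and Pecam1 were higher and Col1a2 and Emcn lower; Pdgfrb, a growth factor receptor of mesenchymal cells, read 613 to 1206 in CLP against 10.5 to 155 and 47.8 to 78.6. The part of such cells in the calls was not tested.

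Many differences were found against 1 stem cell group. Against 32-week HSC alone, 1628 genes were called, 1069 higher and 559 lower in CLP, and for 775 of these the 32-week and young HSC were themselves called different. Against young HSC alone, 1956 were called, 677 higher and 1279 lower, with a called HSC difference for 955. For the rest a difference between the 2 comparisons was not shown. The HSC groups differed in 2550 genes (18.4%), of which 1891 (13.7%) were lower and 659 (4.76%) higher at 32 weeks. These counts depend on the model. With the actin covariate 156 genes were called against 32-week HSC alone, 3491 against young HSC alone and 11 between the HSC groups. With BioB as a covariate these were 2446, 549 and 2485, with weights per group 533, 3267 and 2258, and with weights per array 996, 3198 and 4199. The 7 arrays fitted alone left 421 against 32-week HSC alone. Without young replicate 1, 2 or 3 the HSC groups differed in 1698, 1579 and 1569 genes, and without the third 1292 genes were called against young HSC alone.

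Among genes with a called HSC difference, the largest changes against 32-week HSC alone by the brightest probe set were falls. They were those of Meg3, Ctse and Zfp612 (-2.72). The mean over the probe sets of Meg3 gave -1.07 (adjusted p = 0.0033). The largest gains went with a low level in 32-week HSC. Msh6, a mismatch repair protein, read 731 to 1589 in CLP, 57.3, 465 and 164 in 32-week HSC and 1309 to 1388 in young HSC, a change of 2.60 ± 0.43 against the former (adjusted p = 0.00062) and -0.28 against the latter. The mitochondrial enzyme Idh2 read 1267 to 2134, 118 to 492 and 1232 to 1914, and Atp5b, a subunit of the ATP synthase, 3157 to 5382, 593 to 1703 and 4893 to 5160. In these 3 genes CLP overlapped young HSC, and replicate 2 had the highest of the 32-week values and the lowest actin ratio of the 3, at 4.24. The other replicates did not keep that order for Msh6: replicate 1, with a ratio of 4.90, read below replicate 3, with 5.26. The part of the actin ratio in these levels was not tested. With the actin ratio as a covariate the changes of Msh6, Idh2 and Atp5b were 1.03, 1.32 and 0.30, with adjusted p of 0.64, 0.44 and 0.93. Among the falls stood Ctse, the aspartic protease cathepsin E, with 342 to 506 in CLP, 2871, 5538 and 5287 in 32-week HSC and 326 to 360 in young HSC. Its change was -3.33 ± 0.21 (adjusted p = 1.2e-07), it kept its call with the covariate (-3.68, adjusted p = 0.001), and a second, dimmer probe set read 1.45. Nr4a2, an immediate early nuclear receptor, changed by -2.61 (adjusted p = 0.03) with overlapping arrays, and the call was lost in 4 of the 10 fits that left out 1 array.

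Against young HSC alone, the largest gain among genes with a called HSC difference was in Chchd10, a mitochondrial protein. Chchd10 was split within CLP (4.07 between the Ly6D groups, adjusted p = 4.4e-05). It read 4227 and 3479 in Ly6D+ and 294 and 153 in Ly6D- CLP, 409 to 868 in 32-week and 139 to 204 in young HSC. Against 32-week HSC, Ly6D+ CLP alone were higher by 2.53 and Ly6D- CLP alone changed by -1.54, both called (adjusted p = 0.00012 and 0.0052), so that the CLP mean hides opposite differences. Rabep2, an endosomal protein, read 1491 to 2485 in CLP, 1439 to 2612 in 32-week and 395 to 457 in young HSC, a change of 2.24 ± 0.21 against young HSC and 0.24 against 32-week HSC. A second probe set of Rabep2 read 1.45 against 32-week HSC. The mean of its probe sets was called there as well (0.84, adjusted p = 0.031). Dvl1, the Wnt signal transducer Dishevelled, read 1429 to 3025, 2213 to 3092 and 443 to 477. The largest falls among such genes were those of Mosmo (-3.20), Dstyk (-3.07), the palmitoyltransferase Zdhhc24 (-2.95), Spty2d1 (-2.94) and Ldlrad3 (-2.83). With the mean of probe sets, Mosmo was called lower against 32-week HSC too (-0.89, adjusted p = 0.033). Ldlrad3 read 53.9 to 134 in CLP, 88.5 to 161 in 32-week and 517 to 785 in young HSC. By their brightest probe sets, CLP overlapped 32-week HSC and young HSC stood apart in Rabep2, Dvl1 and these 5 genes, as in the poly-A controls. The part of the controls in these calls was not tested.

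**Figure D5:**
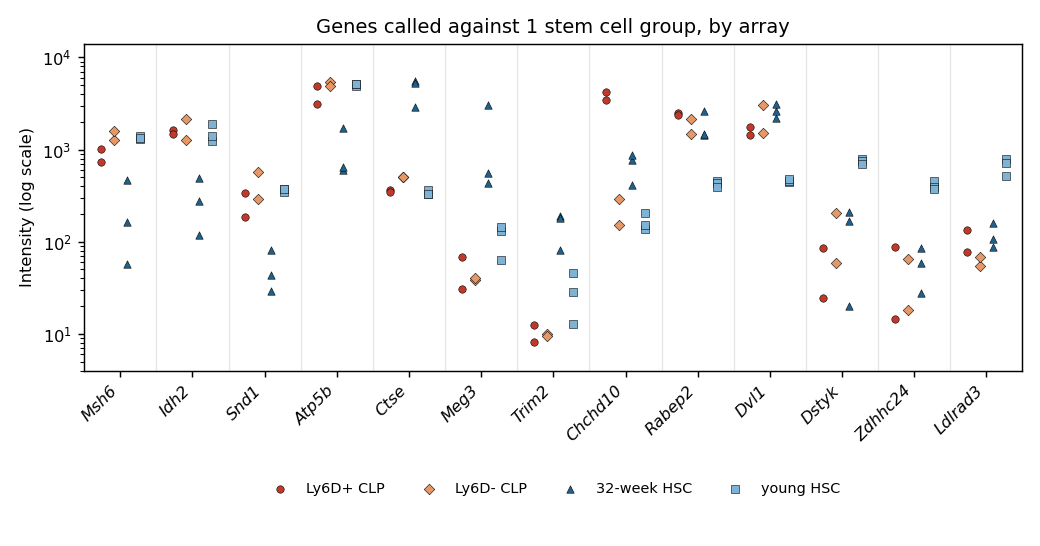
Intensity (log scale) of 13 genes whose call or its direction in CLP depends on the HSC group, with circles for Ly6D+ CLP, diamonds for Ly6D- CLP, triangles for 32-week HSC and squares for young HSC. For Msh6, Idh2, Snd1, Atp5b, Ctse and Meg3 the 32-week arrays stand apart from CLP. From Chchd10 onward each gene is called against young HSC, whose arrays overlap Ly6D- CLP for Chchd10.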

How the data were processed

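The deposited table holds probe set intensities on a linear scale, made by the authors and used as deposited; how the authors summarised and normalized them is not stated by the labels or the file header. The cRNA was biotinylated by the Affymetrix protocol, per the labels' protocols. Of 45101 probe sets, 34945 carry 1 gene symbol in the platform annotation, 932 several, 9160 none, and 64 detect control transcripts. For each of the 18193 genes the brightest probe set, by its mean over the 16 arrays, was kept; 14343 genes passed a filter that asked for a value over the array's 40th percentile on 2 or more of 16 arrays. Of these, 13853 lie on chromosomes 1 to 19; 453 on X, 6 on Y and 31 without such a place were left out after the fit. Values were transformed to log2(intensity + 16). With 2 or 3 arrays a group, the number of arrays limits the precision.

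The model (limma 3.58.1, functions lmFit and eBayes, under R 4.3.3) had 1 mean for each of 6 groups and 1 estimate of the spread shared by them; Benjamini-Hochberg adjustment covered all genes tested. CLP were compared with each HSC group as the mean of the Ly6D+ and Ly6D- group means. Whether the comparisons differ was read from 32-week against young HSC in the same fit, in which CLP cancel. The script was tested on simulated data. Genes are named by a rule: the 14 largest changes in each direction against 32-week HSC among genes called the same way against both whose CLP arrays overlap neither HSC group, the 5 largest in each direction called against 1 group with a called HSC difference, up to 6 members of each list called against both or 2 as values, and Ly6d, Il7r, Flt3, Kit, Slamf1, Cd34, Ebf1, Rag1, Dntt, Gata2 and Procr. List members named beyond these, and the array controls, were picked with their values in view. The rule, the members and the 30 gene lists (544 symbols, 503 matched, 475 tested) were chosen with earlier results of these data known, and no list was tested as a set. The alternatives concern normalization, filter, pseudocount, probe sets, spread, covariates, replicate block and each array left out. After seeing the data 4 were added: the actin ratio or BioB as a covariate, weights per group, and young replicates 2 and 3 averaged and counted as 1. The last was added because these arrays were the most alike of any replicate pair, with a median absolute log2 difference of 0.0962 against 0.129 to 0.473 in the others; whether they are separate samples is known from the labels alone. Promoter windows are those of RefSeq.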

Additional observations from a re-analysis of the deposited data

Results flagged for a closer look

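In 120 autosomal genes CLP were called different from both HSC groups in opposite directions. In each of the 120 the 32-week and young HSC were themselves called different by limma. That call nearly follows from the selection and adds no evidence, since the HSC difference is made up of the 2 called changes. In 95 of them CLP lay above 32-week HSC and below young HSC (0.686% of genes tested), and in 25 below 32-week and above young HSC (0.180%). The count of 120 fell to 15 with the actin covariate and 17 with the BioB covariate. It was 267 without 32-week replicate 2, 54 without young replicate 2, and 55 to 74 without 32-week replicate 3, Ly6D- replicate 1, either Ly6D+ array or young replicate 1 or 3. The following 4 genes were singled out after their values were seen. Tardbp, an RNA-binding protein, read 939 to 1364 in CLP, 144 to 617 in 32-week and 2391 to 2818 in young HSC, with a difference of -3.34 between 32-week and young HSC (log2, adjusted p = 0.00029). Rnf145, a ubiquitin ligase, read 315 to 1311, 97.8 to 381 and 1781 to 2275, with a difference of -3.08. The integrin chain Itgb1 read 47.8 to 294, 22.6 to 136 and 322 to 386, with a difference of -2.52, and Polr2m read 522 to 754, 201 to 469 and 1520 to 1919, with a difference of -2.45. CLP lay between both HSC groups without overlap for Tardbp and Polr2m, and overlapped the 32-week arrays for Rnf145 and Itgb1. The change of Itgb1 turned with a covariate, to -0.88 against 32-week HSC with the actin ratio and to 0.03 against young HSC with BioB, neither of them called. Groups held 2 or 3 arrays, so single arrays were not screened as outliers.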

How the results depend on the processing

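Under the 28 alternatives, of the 159 named genes called against 32-week HSC and the 158 called against young HSC, Itgb1 alone changed direction: from 1.30 to -0.88 against 32-week HSC with the actin covariate (adjusted p = 0.56), and from -1.22 to 0.03 against young HSC with the BioB covariate (adjusted p = 0.98). The 3899 genes called against 32-week HSC became 1680 when the 7 arrays were fitted alone, 2100 with array weights per group and 833 with the actin ratio as a covariate. With median centring 2604 were higher and 1415 lower than in 32-week HSC. The 4227 called against young HSC became 2627 with BioB as a covariate. The 2151 called the same way against both became 1229 with the 7 arrays alone and 662 with the actin covariate. Leaving out each array in turn gave 3297 to 3885, 3066 to 4801 and 1708 to 2314 for these counts, and 3078 to 4055 for the 3584 called against 1 group. Of 143 genes named by the rule and called against 32-week HSC, 136 kept the call in all 10 such fits; Aqp1, Birc5, Bok, Ier3, Nr4a2, Oasl2 and Sc5d lost it in at least 1. The call was lost for 66 with the actin covariate, 19 with the BioB covariate, 18 with weights per group and 17 with the 7 arrays alone. With young replicates 2 and 3 counted as 1, 3561, 3076, 1714 and 3099 genes were called. Same-numbered arrays share only a number, with correlations of -0.08 to 0.24; with the replicate block 3742, 4061, 2064 and 3487 genes were called. The cause of these shifts was not tested. Levels near 20 lie at the array background, where log2 changes depend on the pseudocount. The 4 CLP arrays allow no test of Ly6D beyond 2 against 2.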
